A study of Mus musculus with 2 samples.

Results

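Broad Myb peaks were the 867 peaks wider than 2000 bp among the 25793 peaks (3.36%) deposited for a ChIP-Seq of the transcription factor Myb. The peaks were chosen by the measured width alone, so width and the enrichment values that come from the same Myb-against-IgG contrast are given as description, without a test. Bone marrow of WT mice had been depleted of cells carrying lineage markers (Lin-), to a purity above 80% per the labels. The study's methods apply the name WT to mice with a floxed Ep300 gene and no Cre (Ep300 fl/fl), treated with poly(I:C) as young animals, but they do not say so for the Myb ChIP in particular, nor the age at which these cells were taken. A nonspecific rabbit IgG precipitate of the same WT Lin- cells served as the background for peak calling, and its own signal was not analysed here. There was 1 library of each kind, so nothing below measures variation between mice, and intervals cover counting error over peaks, genes or reads only.

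Myb is a DNA-binding protein required for definitive hematopoiesis. It is abundant in immature progenitors, declines as cells differentiate, and recruits coactivators such as p300 to promoters and enhancers. Its consensus site has the core AAC, then G or T, then G, and was searched here as CAACGG or CAACTG, and with T as the first base TAACGG or TAACTG, on either strand. A wide peak is a long interval reported as 1 enriched region, which can include short gaps between enriched stretches, and it can span a gene start and part or all of a short gene. Gene expression was not measured in these samples, and the cell type label could not be checked from peaks.

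As examples of Myb motifs in broad peaks, the summit windows of 101 bp (plus strand, mm10) are printed for 4 broad peaks. These are among the strongest or widest and carry a Myb motif near the summit, with motif letters of either strand in capitals. They were chosen after the motif positions were seen. The windows lie at chr17:27556007-27556107 in the peak over the start of Hmga1, a chromatin architectural protein, at chr3:137969141-137969241 in an intron of Dapp1, an adaptor of B cell receptor signaling, at chr5:3497689-3497789 in an intron of Cdk6, a cell cycle kinase, and at chr17:70847321-70847421 within Tgif1, a homeodomain repressor.
Hmga1: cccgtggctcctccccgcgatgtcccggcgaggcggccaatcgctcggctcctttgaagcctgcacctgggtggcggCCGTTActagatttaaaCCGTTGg
Dapp1: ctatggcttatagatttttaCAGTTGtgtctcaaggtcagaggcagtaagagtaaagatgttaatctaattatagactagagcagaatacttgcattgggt
Cdk6: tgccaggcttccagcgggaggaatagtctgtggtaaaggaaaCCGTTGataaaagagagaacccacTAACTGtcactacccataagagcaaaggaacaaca
Tgif1: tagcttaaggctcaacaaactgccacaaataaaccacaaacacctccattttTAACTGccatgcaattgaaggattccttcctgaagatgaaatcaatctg
The Hmga1 and Cdk6 windows held 2 motifs each, and the Dapp1 and Tgif1 windows held 1 each. Of all broad peaks, 19.8% had at least 1 motif in this window, against 16.5% of narrower peaks. Among the 10 strongest broad peaks 5 had one, and among the 15 widest 2.

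A further broad peak, at chr16:94697663-94699710, lay outside protein-coding genes, 28767 bp from the nearest protein-coding start, that of the kinase gene Dyrk1a. It held 25 Myb motifs, the most of any peak in the list, and 15 of its 24 successive motif gaps were exactly 29 bp. A stretch of 293 bp at chr16:94698704-94698996 (plus strand) is printed to show the repeat, with the TAACTG motif in capitals.
Dyrk1a-nearest repeat: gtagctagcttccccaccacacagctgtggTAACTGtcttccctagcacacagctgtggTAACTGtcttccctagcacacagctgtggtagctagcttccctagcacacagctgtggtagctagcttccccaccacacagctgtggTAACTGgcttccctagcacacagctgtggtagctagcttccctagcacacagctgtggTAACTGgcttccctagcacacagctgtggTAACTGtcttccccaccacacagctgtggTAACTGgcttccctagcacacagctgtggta
Shifted by 29 bp, 88.9% of the bases around the summit matched themselves. No other broad peak had a match above 0.8 of its bases by this measure, and 3 of 24926 narrower peaks did. The fold enrichment of this peak was 25.5 and rested on 103 reads (Poisson interval, 84.1 to 125). How reads were placed within the repeat was not tested. The peak was singled out after its motif count was seen.

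Broad peaks held the starts of 39 miRNA genes in 31 peaks, and 18 of these genes matched RefSeq entries (GRCm38.p6) with mature sequences. The mature miRNAs below, with the seed (bases 2 to 8) in capitals, are those from the widest of these peaks and from 2 compact clusters.
miR-142a-3p: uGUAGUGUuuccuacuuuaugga
miR-21a-5p: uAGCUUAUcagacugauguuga
miR-15b-5p: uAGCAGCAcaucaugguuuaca
miR-16-5p: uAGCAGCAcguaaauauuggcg
miR-23a-3p: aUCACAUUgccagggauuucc
miR-27a-3p: uUCACAGUggcuaaguuccgc
miR-24-3p: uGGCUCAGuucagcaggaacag
miR-15b-5p and miR-16-5p share a seed, and their genes lie together in Smc4, which encodes a condensin subunit. The other 5 printed seeds differ from it and from each other.

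Broad peaks were stronger than the narrower ones, as values that go with the choice by width. Their median width was 2507 bp, with quartiles of 2196 and 3026.5 bp and a maximum of 11645 bp. Median fold enrichment over IgG was 8.42 (range, 2.63 to 30.9) in broad and 4.48 in narrower peaks. The median summit of a broad peak was covered by 37 Myb reads (range, 14 to 122), against 18 reads in narrower peaks. The share of broad peaks rose from 0.335% in the lowest 10% of all peaks by fold enrichment to 18.0% in the highest 10%. Even so, 74 broad peaks lay below the median enrichment of the whole list, and within the 867 peaks the rank correlation of width with fold enrichment was 0.20, a description over peaks of 1 library. The local IgG background was also higher. It exceeded 2.93 reads, which is 2 times its genome-wide floor, in 42.9% of broad and 28.0% of narrower peaks, and its part in the other differences was not tested.

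**Figure D1:**
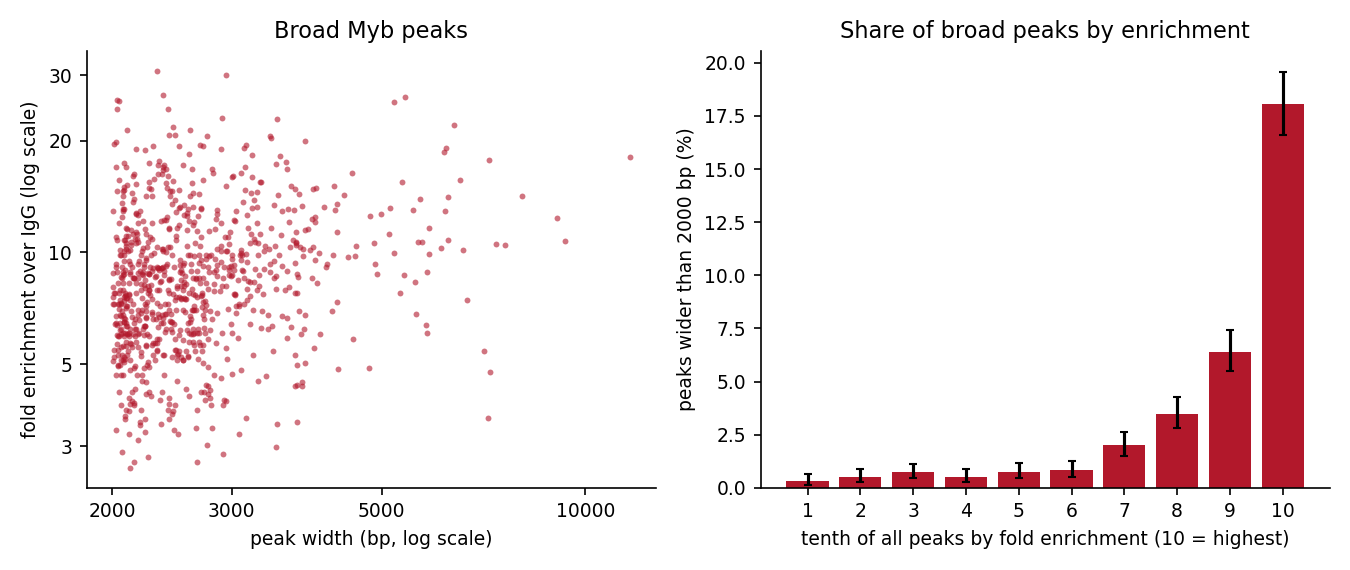
Left, width (bp, log scale) against fold enrichment over IgG (log scale) for the 867 broad peaks, 1 point each. Right, share of peaks wider than 2000 bp in 10 equal classes of fold enrichment, with exact 95% intervals. The share is 0.335% in the lowest class and 18.0% in the highest.

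The threshold cut through a continuous range. Just inside it were peaks of 2001 bp at Pmm2 (fold enrichment, 8.06) and 1700017B05Rik (7.28), of 2002 bp at Sos2 (5.10) and Laptm5 (7.59), and of 2003 bp at Ywhaz (12.9). Just outside were peaks of 2000 bp at Elmsan1 (5.53) and Def8 (9.86), of 1998 bp at H2afj (5.25), and of 1997 bp at Dad1 (20.6) and Mga (6.33). The fold enrichments on the 2 sides overlapped.

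The widest peak, of 11645 bp, covered the long noncoding RNA gene Malat1, whose transcript is retained in nuclear speckles, with a fold enrichment of 18.1 from 81 reads (64.3 to 101). The next was over Zfp36, an mRNA decay factor, with 9331 bp, a fold enrichment of 10.7 and 48 reads (35.4 to 63.6). Chd2, a chromatin remodeler, followed with 9091 bp and a fold enrichment of 12.4. The Zfp36 and Chd2 peaks ran 4993 and 5703 bp downstream of the first start inside the peak and 4337 and 3387 bp upstream of it. The peak over Mir142 and the start of Tspoap1 was 7615 bp wide (fold enrichment, 10.5), and that over Mir21a, which lies at the end of Vmp1, was 7378 bp wide (10.5). Hnrnpa2b1, which encodes an RNA-binding protein, had a peak of 7087 bp and a second, of 6536 bp, shared with the start of Cbx3 (fold enrichment, 5.43 and 15.6), and Ddx5, an RNA helicase gene, had 6398 bp and 22.0. Gas5, a snoRNA host, lay under 6678 bp, and Srgn, the proteoglycan of blood cell granules, under 6602 bp. Width did not order strength here: Zc3h4 (7223 bp) and Ier2 (7192 bp) had fold enrichments of 4.76 and 3.59, and the IgG background at Ier2, 10 reads, was the highest of all broad peaks.

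**Figure D2:**
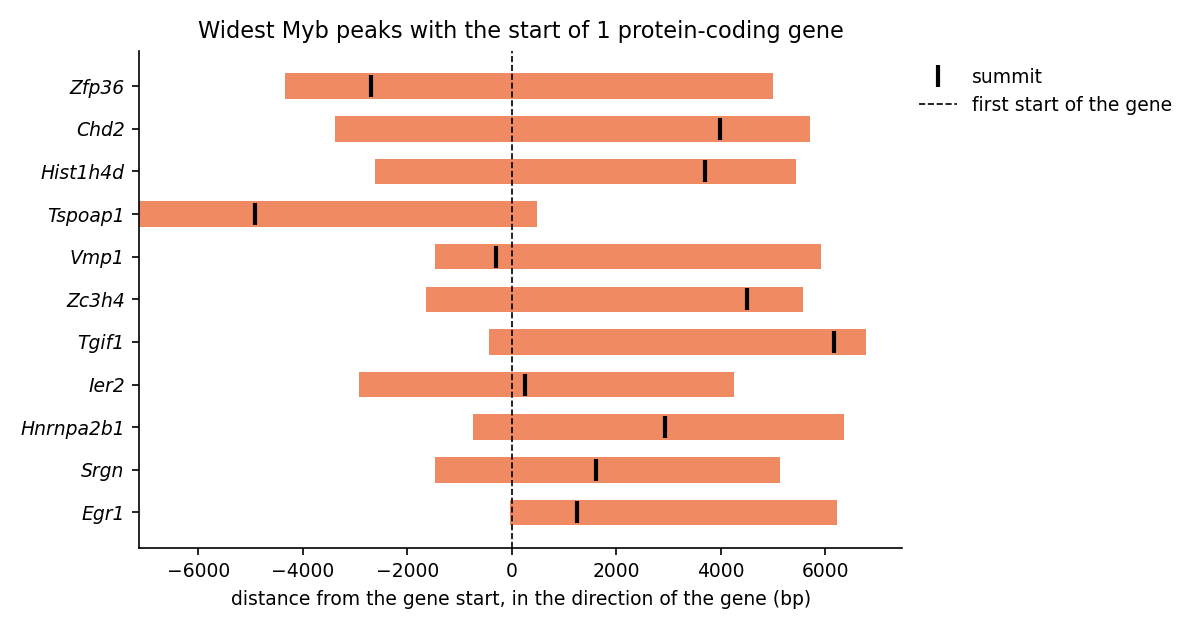
Extent of the 11 peaks among the 15 widest that hold the start of 1 protein-coding gene, with the summit as a black tick. Distance (bp) is drawn from the first start inside the peak, in the direction of the gene. The dashed line marks this start, which for Hnrnpa2b1 is not the gene's own first start. The Tspoap1 peak lies mostly before the start, reaching 7132 bp upstream, whereas the Tgif1 peak reaches 6781 bp into the gene.

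The strongest broad peaks were not the widest. Hmga1 had a fold enrichment of 30.9 (103 reads, 84.1 to 125) in a peak of 2325 bp. Hhex, a homeodomain factor of hematopoietic progenitors, had 30.0 (106 reads, 86.8 to 128) in 2945 bp. Serinc3, a membrane protein, had 26.2 in 5410 bp, and the paired histone genes Hist1h2ae and Hist1h2bg had 25.4 in 5217 bp. Peaks inside introns were among them: Dapp1 (26.6), Etv6, an ETS family repressor (24.4), and Cdk6 (23.1). Ndufaf3, a complex I assembly factor, had 24.3 in 2029 bp. The read intervals of Hmga1 and Hhex overlap, so their order is not resolved.

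Broad peaks lay at gene starts far more often than narrower ones. A protein-coding start fell inside 579 of 867 broad peaks (66.8%; exact 95% interval, 63.5% to 69.9%) and inside 22.6% of narrower peaks, a difference of 44.2 percentage points (Newcombe interval, 40.9 to 47.3). A wider interval can hold more by its length alone, and per Mb of interval broad peaks held fewer coding genes, 277 (257 to 299) against 383 (373 to 392). The summit is a single position, whatever the width. Summits lay within 3 kb of a start of any gene in 82.7% of broad peaks (80.0% to 85.2%) and 56.7% of narrower ones, a difference of 26.0 points (23.3 to 28.5). Among peaks in the top 25% by fold enrichment the shares were 82.6% and 54.5%, so the difference was as large, 28.1 points (24.9 to 31.1), at high enrichment.

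More than 1 protein-coding gene started inside 90 broad peaks (10.4%), against 2.51% of narrower peaks, and in 78 of the broad peaks the genes ran on both strands. The most crowded peak held 4 starts, those of Bola1, Hist2h2ab, Hist2h2ac and Hist2h2be, and had a fold enrichment of 8.97. A further 6 broad peaks held 3 starts. They were the peak of Hist1h4k, Hist1h2ak and Hist1h2bn (fold enrichment, 19.1), that of Ak6, Rad17 and Taf9 (13.5), that of Hdlbp and 2 annotated entries named Sept2 (9.37), that of Myl12a, Myl12b and Myom1 (7.07), that of 1810009A15Rik, Gm49416 and Lbhd1 (3.74), and that of Hspa14, Gm45902 and Cdnf (2.89). The widest with 2 starts were the Hnrnpa2b1 and Cbx3 peak, the Ddx5 and Cep95 peak and the peak of Ift80 and Smc4 (6120 bp, 10.3). The 7 peaks with 3 or 4 starts thus covered a wide range of enrichment.

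Most broad peaks with starts of a single coding gene had more bases downstream than upstream of the first start inside the peak. That start need not be the gene's own first: Hnrnpa2b1 also had starts in a second broad peak, further upstream. Counted from the first start inside, 355 of 489 (72.6%; 68.4% to 76.5%) had more bases downstream, with a median of 1694 bp downstream and 913 bp upstream. In narrower peaks the share was 57.0%. The value depended on the start used: from the most downstream start inside the peak it was 49.3% (44.8% to 53.8%) in broad and 38.1% in narrower peaks. In the 122 broad peaks whose gene had 1 start position inside, a subset added after the data were seen, it was 60.7% (51.4% to 69.4%). Broad peaks stayed above narrower ones in all 3 counts, by 15.6 (11.3 to 19.6), 11.2 (6.60 to 15.8) and 11.7 points (2.53 to 20.2).

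Replication-dependent histone genes, which supply histones in S phase and are short and intronless, had the highest share of the 15 gene lists. Of 67 annotated members 36 (53.7%; 41.1% to 66.0%) had a start in a broad peak, in 23 peaks, where 2.99% of all 21938 protein-coding genes did. Peaks of any width held the starts of 54 of the 67, against 28.5% of all genes. Hist1h4d had the widest peak (8067 bp; fold enrichment, 14.2), with the summit 3693 bp downstream of its start, past the end of the gene. Next came the peak over Hist1h4k, Hist1h2ak and Hist1h2bn (6219 bp, 19.1) and that over Hist1h4h and Hist1h2af (5364 bp, 15.5). Fold enrichment over the 23 peaks ranged from 6.79 to 25.4 with a median of 11, and the median IgG background was 2.00 reads. Histone genes have near-identical copies, so reads at single members are uncertain. The Hist1 cluster on chromosome 13 held 33 broad peaks of 133 (24.8%; 17.7% to 33.0%), and the rest of that chromosome 30 of 1165 (2.58%; 1.74% to 3.66%).

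Immediate-early and feedback genes, which answer signals within minutes and shut them off again, came next. A start in a broad peak was found for 15 of 32 (46.9%; 29.1% to 65.3%), against 2.99% of all protein-coding genes. For 28 of 32 a start lay in a peak of any width, against 28.5% of all genes. Of those 28, 53.6% (33.9% to 72.5%) had a start in a broad peak, against 10.5% of all genes with a start in any peak. The widest were Zfp36, Ier2 and Egr1, a zinc finger factor (6276 bp; fold enrichment, 14.1; 72 reads, 56.3 to 90.7). The AP-1 subunit genes Junb (6204 bp, 12.9), Jun (5876 bp, 9.91), Fosb (3162 bp, 7.94), Jund (2508 bp, 11.8) and Fos (2096 bp, 11.1) were all members. Separate broad peaks lay directly next to those of Fosb (2948 bp), Jund (3281 bp) and Fos (3777 bp), so each width is that of 1 listed peak only. Dusp1, a MAP kinase phosphatase, had 5706 bp and 13.9, and Cxcr4, the chemokine receptor that retains progenitors in marrow, had 2628 bp and 13.3. Pim1, a survival kinase, had 2917 bp and 8.52.

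Hematopoietic transcription factors had 9 of 67 starts in broad peaks (13.4%; 6.33% to 24.0%), against 2.99% of all protein-coding genes. In a peak of any width they had 48 of 67, against 28.5% of all genes. Of those 48, 18.75% (8.95% to 32.6%) had a start in a broad peak. This interval includes the 10.5% found over all genes with a start in any peak. The widest belonged to Klf6 (5208 bp; fold enrichment, 9.99), Klf13 (3852 bp, 11.5) and Fli1 (3745 bp, 7.77). Runx1 had a broad peak at each of 2 starts, of 2971 bp (8.71) and 2856 bp (9.26). Lyl1, a bHLH factor of stem cells, shared a peak with the start of Trmt1 (fold enrichment, 17.5; 88 reads, 70.6 to 108). The Trmt1 start was the nearest to its summit, 848 bp away. The others were Hhex, Etv6, Foxo3 and Foxp1. Chromatin regulators had 6 of 33 (18.2%; 6.98% to 35.5%), with Arid1a, a SWI/SNF subunit (2978 bp, 10.5), Kdm6a, an H3K27 demethylase (2829 bp, 8.21), and Asxl2 (2688 bp, 5.74) the widest. Peaks of any width held the starts of 20 of the 33, and 30% of those (11.9% to 54.3%) were in a broad peak. Ep300, which encodes p300, had 2540 bp and 7.90, and Ncor1 and Eed completed the group.

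Cytosolic ribosomal protein genes had a start in a peak of any width in 73 of 82 cases and in a broad peak in 2 (2.44%; 0.297% to 8.53%), Rpl4 (2660 bp; fold enrichment, 8.55) and Rpl13a (2472 bp, 3.88). Of the genes with a start in any peak, 10.5% had one in a broad peak, 66.7% (52.5% to 78.9%) of such histone genes and 2.74% (0.334% to 9.55%) of such ribosomal protein genes. In 4 further lists the share was above the 2.99% of all genes, but each interval included it. Cell cycle and survival genes had 3 of 26 (11.5%; 2.45% to 30.2%), Cdk6 (4007 bp; fold enrichment, 8.28), the kinase inhibitor gene Cdkn2c (2570 bp, 8.22) and E2f3 (2266 bp, 5.95). Progenitor receptor and signaling genes had 2 of 31 (6.45%; 0.791% to 21.4%), the kinase gene Jak2 (2748 bp, 7.22) and Ifngr1 (2453 bp, 3.66). Proteasome subunit genes had 2 of 48 (4.17%; 0.509% to 14.3%), Psmd5 (2192 bp, 6.06) and Psma6 (2156 bp, 6.45). Mitochondrial ribosomal protein genes had 3 of 78 (3.85%; 0.80% to 10.8%), Mrps18b (5561 bp, 13), Mrpl41 (2859 bp, 6.87) and Mrpl51 (2055 bp, 4.98). The Mrps18b and Mrpl41 peaks also held starts of Ppp1r10 and Pnpla7, which lay nearest the respective summits. No start in a broad peak was found for 9 T lineage, 9 B lineage, 12 neutrophil and monocyte, 12 erythroid and megakaryocyte or 10 stromal and endothelial markers, where peaks of any width held 0, 1, 4, 6 and 1. With upper limits of 26.5% to 33.6% for lists this short, these zeros cannot be told apart from the 2.99% of all genes. The 1135 olfactory receptor genes, used mainly by sensory neurons, had 0 starts in broad peaks (upper limit, 0.324%) and 4 in any peak.

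**Figure D3:**
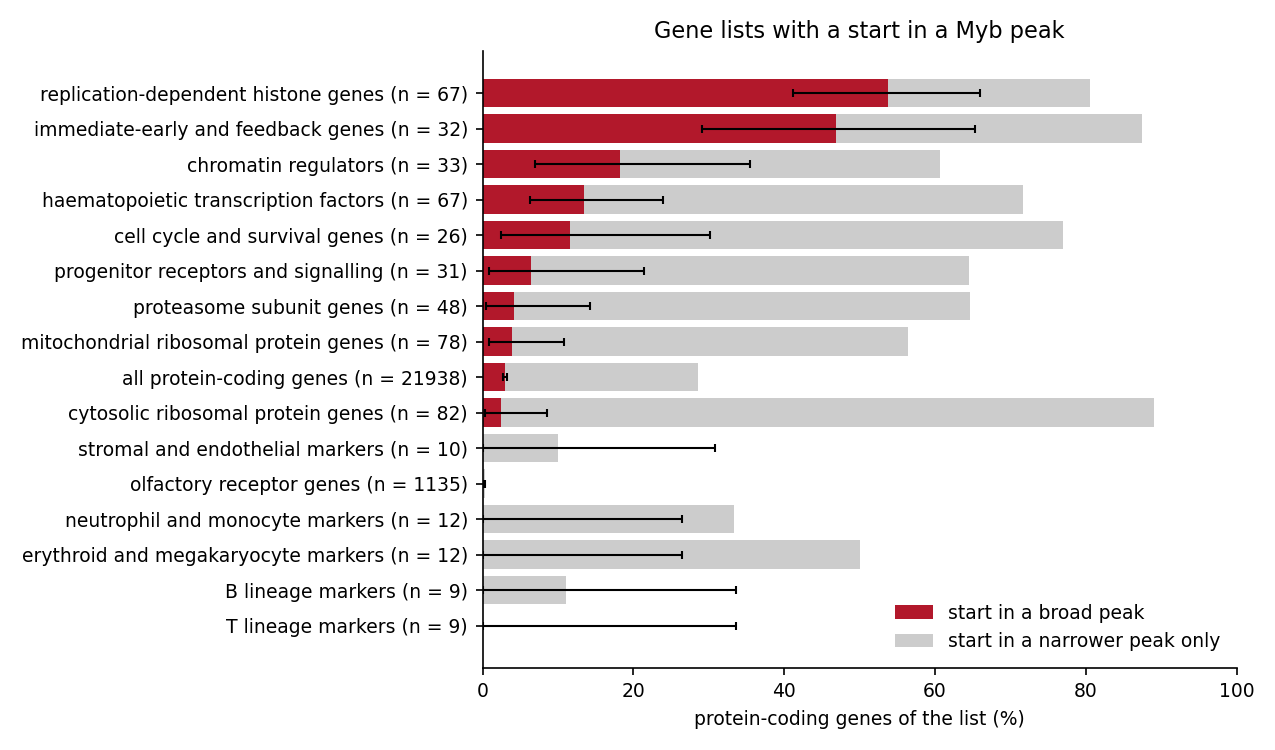
Percent of the protein-coding genes of each list with a start in a broad peak (red, with exact 95% intervals) or in a narrower peak only (gray). Histone genes (53.7%) and immediate-early and feedback genes (46.9%) are highest in red, against 2.99% of all protein-coding genes.

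Some broad peaks covered a gene from end to end. This held for 35 broad peaks (4.04%; 2.83% to 5.57%) and 38 genes, against 15 narrower peaks, and wider intervals can do so by their length. Of the 38 genes 23 were replication-dependent histone genes, and 7 were immediate-early genes (Zfp36, Ier2, Egr1, Junb, Jun, Ier5 and Ier3). H2afx, the histone variant phosphorylated at DNA breaks, was covered by a peak of 3436 bp (fold enrichment, 20.3; 92 reads), and Gpx1, a glutathione peroxidase gene, by one of 3205 bp (14.4). The median covered gene was 1180.5 bp long, and the peaks ran past its end by a median of 1390.5 bp. Over all genes with a start in a broad peak, however, median gene length was 23064 bp, close to the 22801 bp of genes with a start in narrower peaks only.

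Short noncoding RNA genes were dense in broad peaks. Per Mb of interval there were 16.0 miRNA starts (11.4 to 21.8) in broad and 3.96 (3.05 to 5.04) in narrower peaks, and 14.7 snoRNA starts (10.3 to 20.4) against 2.31 (1.64 to 3.18). The 36 snoRNA genes lay in only 12 broad peaks, so they are not independent. For lincRNA genes the densities were 17.2 (12.4 to 23.3) and 16.3 (14.4 to 18.3), with overlapping intervals. The miR-15b and miR-16 genes lay in a peak of 6120 bp with a fold enrichment of 10.3 (35 reads, 24.4 to 48.7), and the cluster of Mir23a, Mir27a and Mir24-2 in a peak of 3652 bp with 8.05 (51 reads, 38.0 to 67.1). The snoRNA hosts included Gas5, Hspa8, a chaperone gene with Snord14c to Snord14e (5814 bp, 6.36), the Snhg1 locus beside Slc3a2 (3941 bp, 12.3), and Eif4a2, a translation initiation helicase gene with Snord2 (3958 bp, 10.3).

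Of the 288 broad peaks without a protein-coding start inside, 51 held the start of another gene, and 150 had the summit within a protein-coding gene. The median distance from the peak to the nearest coding start was 4027 bp, with quartiles of 943 and 14527 bp, and 20 lay more than 50000 bp away. By fold enrichment the leading ones, after Dapp1, Etv6, Cdk6 and the repeat near Dyrk1a, were in Ap3s1 (22.9), Tex14 (21.7), Fam107b (21.4) and Ssbp2 (21.3), and near Ccdc9 (20.8). The peak in Tex14 held the start of the noncoding RNA gene Rnu1a1, 291 bp from the summit. The Cdk6 peak held 10 Myb motifs in 2908 bp, or 3.44 per kb, against 1.40 per kb over all broad peaks.

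The Myb motif was more frequent at the summits of broad peaks than beside them. It was found within 50 bp of 172 of 867 summits (19.8%; 17.2% to 22.7%) and in 11.1% (9.63% to 12.6%) of windows of the same size centered 500 bp away, a ratio of 1.79. In narrower peaks the values were 16.5% and 10.5%, a ratio of 1.58. The median width of narrower peaks was 562 bp, so a window 500 bp away can lie inside a broad peak but outside a narrower one. The 2 ratios are thus not of the same kind. The difference between summits of broad and narrower peaks was 3.29 points (0.728 to 6.11). In the top 25% by fold enrichment, promoter summits differed by 0.79 points (-2.57 to 4.50) and other summits by 0.34 points (-6.91 to 9.04), and these intervals, which include 0, do not show that the classes are alike. Broad peaks away from starts had the motif in 24.7% of summits (18.0% to 32.4%), and those at starts in 18.8% (16.0% to 21.9%).

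Along the whole interval, broad peaks held 1.40 motifs per kb (1.35 to 1.45), narrower peaks 1.50 (1.48 to 1.52), and equal stretches beside the broad peaks 1.21 (1.18 to 1.24). At least 1 motif was present in 95.8% of broad peaks and 57.3% of the shorter, narrower ones, a comparison not adjusted for length. Of the broad peaks 36 held none, among them the peak covering Ier5. Outside the summit window the density in broad peaks was 1.37 per kb, and within it 2.19.

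**Figure D4:**
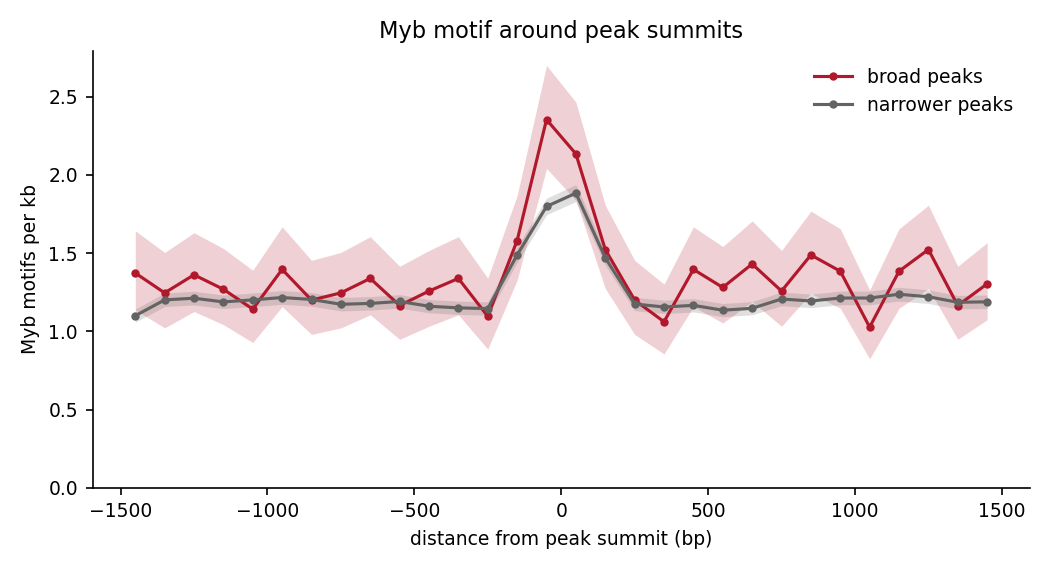
Myb motifs per kb by distance from the peak summit (bp) in bins of 100 bp, for broad (red) and narrower (gray) peaks, with exact Poisson 95% bands. In broad peaks the bins beside the summit reach 2.35 and 2.13 per kb, and in narrower peaks 1.8 and 1.88.

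Motifs of other factors were searched in the same windows on both strands. The GATA motif (AGATAA or TGATAA) was less frequent at summits of broad than narrower peaks, 10.4% against 14.0%, a difference of -3.58 points (-5.49 to -1.33), and so was the E-box (CAGATG or CAGCTG), 11.4% against 14.3% (-2.88 points; -4.88 to -0.55). Beside the summits both were lower at broad peaks as well, 7.27% against 8.85% for GATA and 8.82% against 10.7% for the E-box. The SP/KLF motif (GGGCGG) was more frequent, 11.3% against 7.0% (4.30 points; 2.34 to 6.60), but it was as frequent beside broad summits (11.2%). The IRF motif was at 2.42% against 1.56% (0.86 points; 0.01 to 2.12). For ETS (AGGAAGT or CGGAAGT), RUNX (TGTGGT or TGCGGT), CEBP (TTGCNNAA), AP-1 (TGANTCA), NFY (CCAAT) and NRF1 motifs the interval of the difference included 0. The ETS motif was at 4.84% of broad summits and 2.88% beside them.

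Broad peaks were rich in CpG. Summits met a CpG-island-like measure (GC above 50% and observed/expected CpG above 0.6 in 200 bp) in 40.3% of broad peaks (37.0% to 43.6%) and 19.8% of narrower ones. Among promoter summits the shares were 47.1% and 33.3%, a difference of 13.8 points (10.1 to 17.6), and among promoter summits in the top 25% by fold enrichment 44.8% and 39.3%, a difference of 5.51 points (1.11 to 9.97). Soft-masked repeats made up a median of 13% of a broad and 10.9% of a narrower peak.

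Broad peaks had other peaks close by. Another peak lay within 5 kb of 78.4% of them (75.5% to 81.1%) and of 57.2% of narrower peaks, a difference of 21.2 points (18.3 to 23.9). Some neighbors nearly adjoined: in Cdk6, 1 broad peak ended at chr5:3499975 and the next began at chr5:3500223. A neighbor is thus not always a separate site, and how often peaks nearly adjoined was not counted. The difference was 34.3 points (27.4 to 39.7) for summits away from starts, 82.0% against 47.7%, and 13.2 points (9.90 to 16.2) for promoter summits. Broad peaks made up 0.798% (0.165% to 2.31%) of peaks on chromosome X, 3 of 376, and 3.40% of those on autosomes.

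Across the width classes, the shares at starts and with neighbors rose up to the widest class. Summits within 3 kb of a start made up 52.2% of peaks of up to 500 bp, 81.5% of those of 2000 to 3000 bp and 86.2% (81.0% to 90.4%) of those above 3000 bp. The CpG-island-like share was 41.0% between 2000 and 3000 bp and 38.2% above, with overlapping intervals, and the motif share was 19.5% and 20.9%.

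**Figure D5:**
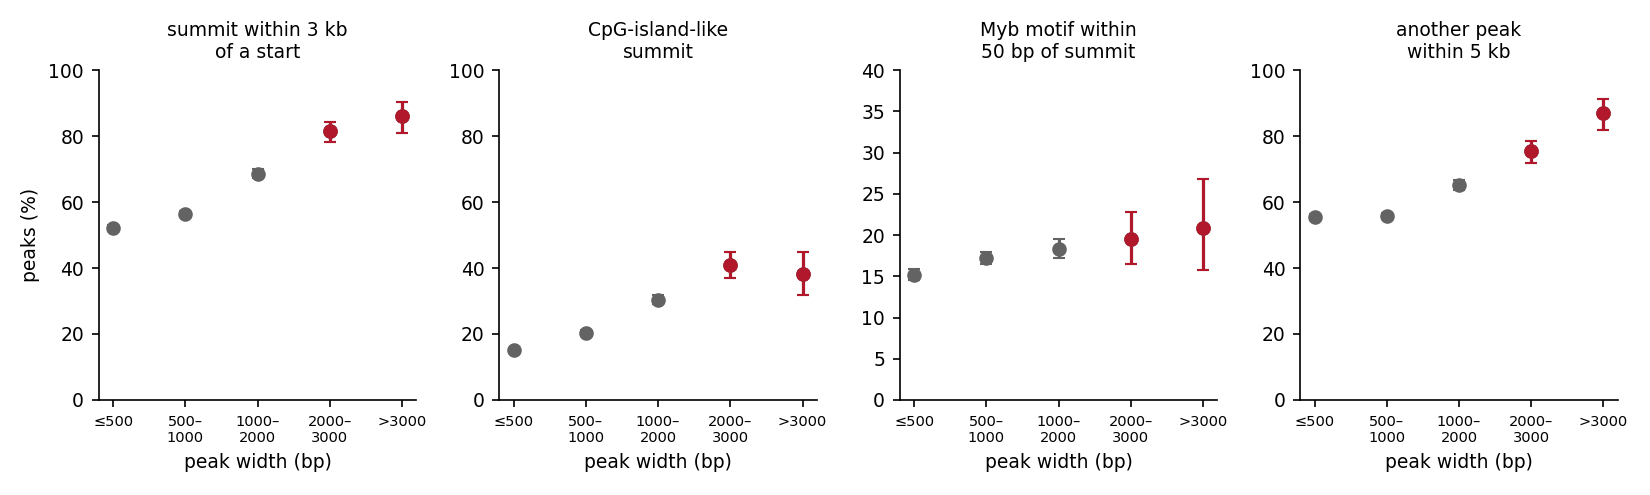
Percent of peaks in 5 width classes (bp) with a summit within 3 kb of a start, a CpG-island-like summit, a Myb motif within 50 bp of the summit, and another peak within 5 kb, with exact 95% intervals and with red marking broad peaks. The first panel rises from 52.2% to 86.2% and the last from 55.4% to 87.1%.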

How the data were processed

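ChIP-Seq of Myb was performed on Lin- bone marrow cells of WT mice, with an IgG precipitate as background and 1 library of each. The sample titles gave the groups. Per the submitters' processing notes, the tools were cutadapt 1.15, BWA 0.7.13, Picard and MACS2 2.1.1.20160309, on mm10. Per the study's methods, low-quality and blacklisted reads were removed and peaks were kept by overlap of calls from pseudo-replicates, which are subsets of 1 library's reads. How such calls were merged can affect width and is not given in the sources used here. The methods give a threshold of q below 0.05 for the calls. In the deposited list, 1867 of the 24926 narrower peaks and 0 broad peaks had a q above 0.05. Fewer than 20 reads covered the summit of 14450 narrower and 17 broad peaks. All these peaks were kept in the comparisons. Adapters were inserted by transposase.

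In the deposited list, fold enrichment is a ratio of Myb pileup to IgG background at the summit, as the authors' MACS2 run gave it. Each p-value and q-value was deposited as its −log10. The deposited score column was not used.

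Peaks with an end minus start above 2000 were selected, and coordinates are 1-based. Starts came from GENCODE vM21 (GRCm38), including 21938 protein-coding genes. No peak passed a chromosome end. Reads at each summit were recovered from fold enrichment and p-value (scale 0.769, tolerance 0.01, background floor 1.46 reads), giving whole reads in 100% of rows. Library depth is not in the list. Shares have exact Clopper-Pearson, differences Newcombe and counts exact Poisson 95% intervals. Peaks are not replicates, so no p-value was computed. Motif search, read recovery and intervals were tested on simulated data. Python 3.11.15, pandas 2.3.3, numpy 2.4.6 and scipy 1.17.1 were used.

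The members and the 15 gene lists were chosen with earlier results of these data known. Named were the 15 widest, the 10 strongest, the 10 strongest without a coding start and the 10 with most genes, the 3 widest of each list and the 5 peaks on each side of the threshold. Further list members, miRNAs, snoRNA hosts and covered genes were named after their values were seen. Of the strongest, 1 peak is not reported here. Alternatives covered width, q-value, start, window, motif and neighbor distance.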

Additional observations from a re-analysis of the deposited data

How the results depend on the processing

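No paired analysis was possible because there was 1 Myb library and no replicate. Values that moved beyond the 95% interval of the main value, or a count by over 1.5 times, were as follows. A width above 1500 bp gave 1914 broad peaks. A width above 3000 bp gave 225 broad peaks, with a coding start inside 72.9%, a promoter summit in 86.2%, more bases downstream in 78.4% and the Myb motif in 8.67% of the windows beside the summit. At that width starts fell in broad peaks for 0.88% of all protein-coding genes, 38.8% of histone genes, 5.97% of hematopoietic transcription factors, and 0 chromatin regulators and 0 cytosolic ribosomal protein genes. Counting starts within 1 kb gave 3.35% of all genes and 73.1% of histone genes. Starts of all genes lay inside 72.7%. Promoter summits were 67.0% with a window of 1 kb and 76.6% with protein-coding starts only. The downstream share was 49.3% from the most downstream start inside the peak and 60.7% in peaks with 1 start position. The looser motif (CAACNG or TAACNG) gave 34.0% at summits, 21.7% beside them and 2.82 per kb. Windows of 25 bp gave 11.9% and 4.90%, and of 100 bp 35.9% and 21.8%, so the summit share stayed above the flanks in each, with ratios from 1.56 to 2.42. Another peak lay within 10 kb of 84.0%. A −log10 q of at least 5 left 826 broad peaks and moved none of the values recomputed under it. Most broad peaks passed this filter, so little movement was possible. Narrower peaks, and the differences between broad and narrower peaks, were not recomputed under it. Leaving out the repeat near Dyrk1a, also added after seeing the data, gave 1.39 motifs per kb. The causes were not tested. The depth limits single peaks: a summit of 37 reads has a wide Poisson interval, and without a second library no width could be checked for repeatability.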
